A study of Sus scrofa with 8 samples.

Results

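The PAX6+ neural tube progenitors were 2165 of 82394 cells, or 2.63%, in 8 single-cell RNA sequencing libraries of pig somites and myotome. A cell was counted as a member if it held at least 1 UMI (unique molecular identifier, a distinct captured RNA molecule) of PAX6 and at least 1 of HES5 or FABP7, no UMI of SOX10, and fewer than 2 detected genes among the neuron genes STMN2, ELAVL4, DCX and NEFL. Each of the 8 libraries held pooled tissue of 5 embryos of the same sow: somites at embryonic day 16 (E16), E18 and E21 and myotome at E28, from Tibetan pigs (ZZ) and from the Duroc × Tibetan cross (DZ). No treatment was given, and every stage and breed was measured in 1 library, so a breed at a stage cannot be told apart from its sow and pool. Tissue is likewise tied to E28, and the version of the counting software to E16.

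PAX6 is a homeodomain transcription factor of the ventricular zone of the neural tube, the layer in which dividing neuroepithelial cells line the central canal. HES5 is a target of Notch signalling that holds these cells in the progenitor state, and FABP7 is a fatty acid binding protein of neural progenitors and radial glia. Along the dorsoventral axis Sonic hedgehog from the notochord and floor plate and WNT and BMP from the roof plate divide the progenitors into domains with their own transcription factors, and HOX genes record their position from head to tail. The neural tube lies between the somites, so its cells can be taken along in the dissection. On the Sscrofa11.1 assembly, PAX6 lies at chr2:28971565-29001149, HES5 at chr6:64409110-64410541 and FABP7 at chr1:39872198-39876272.

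Members were found in all 6 somite libraries and in neither myotome library. They made up 2.78% of the cells of E16-ZZ, 2.83% of E16-DZ, 5.63% of E18-ZZ, 4.35% of E18-DZ, 4.34% of E21-ZZ and 1.53% of E21-DZ. The share was highest in E18-ZZ, nearly equal in E18-DZ and E21-ZZ, and lowest among the somite libraries in E21-DZ. This order depended on depth and filter: with every cell thinned to 2000 UMIs E21-ZZ stood highest, at 2.52% against 1.92% in E18-ZZ and 1.65% in E18-DZ, and so it did with a mitochondrial limit of 5%, at 5.89% against 4.98% and 3.64%. Of 10869 cells of E28-ZZ and 12173 cells of E28-DZ none was a member, which allows shares of up to 0.0276% and 0.0246% by a floor of 3 cells and of up to 0.0339% and 0.0303% by the exact 95% interval, and PAX6 itself was found in 1 and 0 cells. The early libraries (E16 and E18) held 3.90% ± 1.37 (SD, n = 4) and the late ones (E21 and E28) 1.47% ± 2.05 (SD, n = 4). This difference did not pass a two-sided exact permutation test (p = 0.114, the smallest p that 8 libraries allow being 0.0286), and without the E28 libraries it was -0.961 percentage points (exact permutation p = 0.533, where 4 against 2 libraries cannot go below 0.133).

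**Figure D1:**
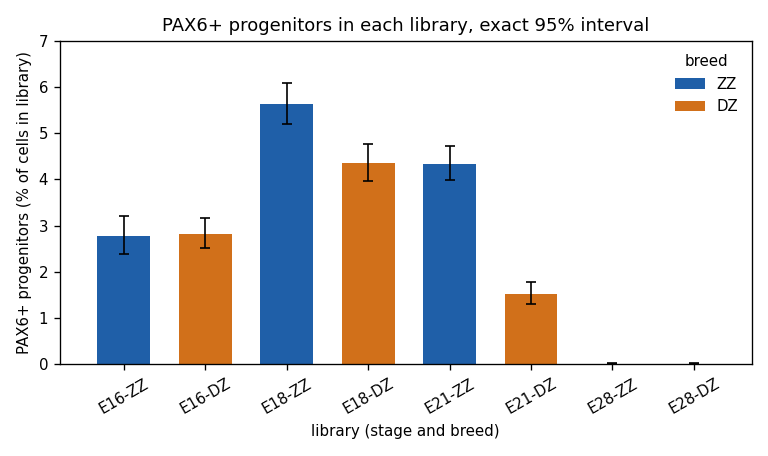
Percentage of the cells of each library (x axis) that were PAX6+ progenitors (y axis), with bars coloured by breed and exact 95% binomial intervals for counting error alone. The E18 bars stand at 5.63% and 4.35%, and both E28 bars are at 0.

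The genes of the rule are described without a test. HES5 alone admitted 1552 members, FABP7 alone 298 and both genes 315. The path of entry differed between libraries: HES5 alone accounted for 84.8% of the members of E18-ZZ and 84.0% of E18-DZ, but for 39.7% of those of E21-DZ, where FABP7 alone admitted 44.2%. Levels are given as CPM, a gene's UMIs scaled to the total UMIs of the members summed in a library. PAX6 stood at 283.9, 288.8, 294.0, 345.0, 367.9 and 284.1 CPM, in the order of ZZ and then DZ at each stage in turn. HES5 stood at 254.3, 169.0, 325.1, 287.0, 993.0 and 160.9 CPM in the same order. FABP7 stood at 63.96, 71.79, 32.83, 27.34, 299.0 and 526.0 CPM. HES5 was highest in E21-ZZ, and FABP7 was higher in both E21 libraries than in the other 4. The PAX6 levels lay close together, but every member holds at least 1 UMI of PAX6. The rule thus sets a floor to this level, which is higher where members are shallower. At least 2 UMIs of PAX6 were held by 37.3% of E21-ZZ and 38.5% of E21-DZ members. In the earlier libraries the share was 52.8% to 56.9%. The threshold was a low one: 1091 members held 1 UMI of PAX6 and 1074 at least 2. Just outside lay 1618 cells with PAX6 but neither HES5 nor FABP7, 605 cells with HES5 and FABP7 but no PAX6, 169 cells with at least 2 neuron genes and 38 with SOX10, while 637 members held 1 neuron gene.

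Droplets also hold RNA released from other cells, and endothelial cells, which do not express PAX6, served as a gauge. In the 6 somite libraries PAX6 was found in 2.82% of 2343 endothelial cells, against 7.0% of all cells. The whole membership rule was met by 23 of these endothelial cells (0.982%), against 2165 of all 59352 cells. With these 23 left out, the gauge cells were deep, with medians of 7374 to 10746 UMIs per library against 3548.5 to 6625 in members. HES5 was found in at most 3.94% of the endothelial cells of any library. FABP7 was found in at most 5.51%, in E21-ZZ, and in 3.51% in E21-DZ. Leaving out the members lowers these shares by construction. The epithelial keratin KRT8 behaved differently: it was detected in 73.7% of the E16-ZZ members and in 74.3% of the E16-ZZ endothelial cells, in 85.0% and 81.1% at E16-DZ, and in 1.39% and 3.15% at E21-ZZ. Whether keratin counts in members came from other cells was not tested.

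Of the neural progenitor list, 9 genes had rows in the table, and all 9 had a higher mean level in members than in the other cells of the same libraries. Their summed level ranged from 494.5 to 1756 CPM over the 6 libraries in members and from 217.4 to 682.3 in the other cells. Nestin (NES), the intermediate filament of neural stem cells, stood at 503.7 ± 316.0 CPM in members against 282.4 ± 129.5 in other cells (SD, n = 6). N-cadherin (CDH2) stood at 169.8 ± 31.79 against 58.50 ± 13.19 CPM, and the RNA-binding protein MSI1 at 86.12 ± 53.29 against 25.80 ± 10.08 CPM (SD, n = 6), each higher in members in all 6 libraries. SOX1 and SOX2 were not used here because the table has no row of that name, and SOX3 gave only 11 UMIs in all members. Summed markers of other tissues ranged lower in members than in other cells, to unequal degrees. Summed mesenchyme markers ranged from 99.6 to 415 CPM in members against 819 to 2304 in other cells, none of the 9 measured had a higher mean in members, and COL1A1 was lower in members in every library. Summed erythroid markers, at 44.5 to 1482 CPM against 1744 to 5920, and endothelial markers, at 26.2 to 172 CPM against 84.6 to 379, were lower too. Epithelial markers reached 2348 CPM in E16-ZZ and 1540 CPM in E16-DZ members and lay between 9.13 and 525.7 CPM in the later libraries. In other cells they ranged from 85.17 to 7022 CPM. EPCAM was found in more members than other cells in E16-ZZ (18.9% against 15.4%), E16-DZ (25.3% against 15.7%) and E18-DZ (7.56% against 2.55%). In E18-ZZ and both E21 libraries it was found in a smaller share of members than of other cells. Neural crest and glia markers were close in both, at 713.4 to 1049 CPM in members and 898.6 to 1158 CPM in other cells, and nearly all of this sum was ERBB3, at 702.3 to 1026 CPM in members. FOXD3 had no UMI in members, and SOX10 none by the rule. The doublet caller Scrublet placed 186 members (8.59%) among the highest-scoring cells of their libraries, close to the 8.14% of all cells of these libraries that it placed there.

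Among genes that the rule did not use, the highest ratio over the other cells belonged to FGFBP3, which binds FGF ligands, at 144.9 CPM in members against 9.23 in other cells, a 15.7-fold difference. The intermediate-domain homeobox genes DBX2 (25.19 against 1.71 CPM) and DBX1 (25.59 against 1.74 CPM) followed at 14.8-fold and 14.7-fold. The DBX1 level rested on E21-ZZ, at 98.28 CPM against 0.81 to 29.66 CPM in the other libraries, and without it the ratio was 9.90, below that of FOXB1. Then came the forkhead gene FOXB1 at 11.5-fold, FAM181A at 11.4-fold and PRDM8, a zinc finger repressor of neural development, at 9.97-fold. FGFR3, the Notch modifier LFNG, the domain genes NKX6-1 and IRX3, and the secreted WNT antagonist SFRP2 also stood among the 40 highest, with ratios of 5.98, 4.82, 5.14, 4.65 and 5.23, and all these genes were higher in members in 6 of 6 libraries. Because the cells were chosen by genes that go with these, the ratios are descriptions and carry no test.

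The members were divided by dorsoventral genes. PAX3 (chr15:124093803-124193041) and PAX7 mark the dorsal progenitor domains, and NKX6-1 (chr8:134137064-134143524), OLIG2 and NKX2-2 the ventral ones. Dorsal members held PAX3 or PAX7 and none of the ventral genes (539 cells), ventral members the reverse (393 cells), 13 held genes of both sides and 1220 of neither. In practice the ventral side was read from NKX6-1, with 780 UMIs in members, since OLIG2 gave 2 UMIs and NKX2-2 gave 36. OLIG2 had only 6 UMIs in all cells of the table, and the proneural genes NEUROG1 and NEUROG2 had 14 and 12, so the motor neuron progenitor domain and the proneural step could not be followed with these genes. The ventral and dorsal genes were rarely found in the same member: NKX6-1 was detected in 1.93% of members with PAX3 and in 22.9% of those without. It was found in 2.99% of members with DBX1 against 19.4% of the others, and in 4.59% of members with DBX2 against 20.4%. PAX7 showed the opposite, in 24.6% of PAX3+ members against 5.01% of PAX3- members. These shares describe single cells of the same libraries and were not tested.

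Dorsal members outnumbered ventral members at E21. Ventral members were 22.9% of E16-ZZ members, 14.3% of E16-DZ, 25.2% of E18-ZZ, 24.9% of E18-DZ, 8.93% of E21-ZZ and 4.49% of E21-DZ. Dorsal members were 12.0%, 17.3%, 19.7%, 17.1%, 40.3% and 46.2% in the same order. Both E21 libraries lay below the other 4 in the ventral share and above them in the dorsal share, in ZZ and in DZ. After every member was thinned to 2000 UMIs the ventral shares were 11.0%, 5.72%, 12.0%, 14.1%, 5.60% and 3.92%, and the dorsal ones 4.05%, 5.05%, 5.80%, 6.09%, 27.2% and 21.6%. The E21 libraries remained highest in the dorsal share and lowest in the ventral share at this depth, with E16-DZ near E21-ZZ in the latter. In endothelial cells NKX6-1 was found in at most 2.36%, PAX3 in at most 3.83% and PAX7 in at most 7.02% of a library, the last in E21-DZ (4 of 57 cells).

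**Figure D2:**
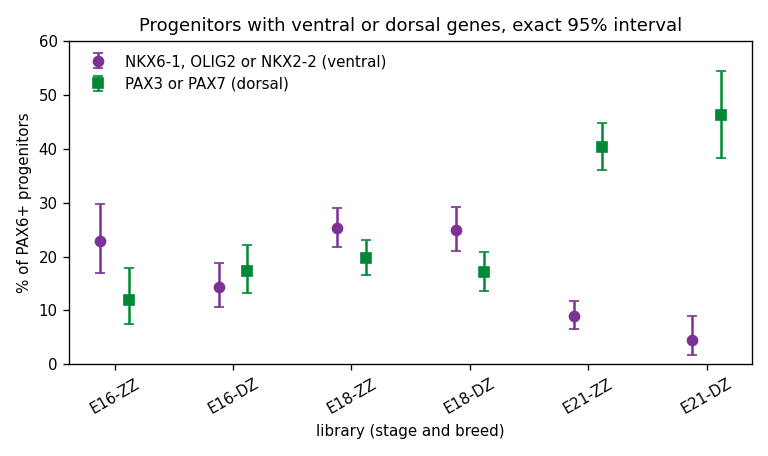
Percentage of the PAX6+ progenitors of each somite library (x axis) that held ventral genes without dorsal ones (circles) or dorsal genes without ventral ones (squares), with exact 95% binomial intervals for counting error alone. The squares rise to 40.3% and 46.2% at E21, while the circles fall to 8.93% and 4.49%.

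Ventral and dorsal members were compared in 5 libraries (E21-DZ, with 7 ventral members, was left out), with counts summed per library and side, the library as a block, and the 5 genes of the split not tested. Of 8181 genes, 132 (1.61%) were higher and 111 (1.36%) lower in ventral members by edgeR's quasi-likelihood test at an adjusted p of 0.05. All 5 tested genes of the dorsal and ventral lists moved to the side of their list. Domain genes chose the sides, so the direction of the other domain genes goes with that choice and is given as a description. OLIG1 and NKX6-2 passed the filter on low counts through the ventral side, and MSX1 and LMX1A through the dorsal side. MSX1, a BMP-responsive homeobox gene of the dorsal tube, stood at 3.73, 7.13, 2.80, 2.09 and 0 CPM in ventral members (ZZ and DZ at E16, ZZ and DZ at E18, and ZZ at E21), and at 123.2, 44.17, 109.2, 117.4 and 24.98 CPM in dorsal members, a log2 difference of -4.88 ± 0.31 (SE, adjusted p = 9.7e-14). ZIC2, a zinc finger gene of the dorsal tube, ranged from 11.52 to 41.05 CPM in ventral and from 81.95 to 218.4 CPM in dorsal members (log2 difference -2.95 ± 0.19, SE). The groups did not overlap for either gene. On the other side NKX6-2, which shares a domain with NKX6-1, ranged from 5.16 to 40.84 CPM in ventral and from 0 to 4.91 CPM in dorsal members (4.33 ± 0.50, SE), and OLIG1 from 5.16 to 50.39 CPM against 0 to 1.05 CPM (adjusted p = 1.3e-08). Of the 4 intermediate-domain genes tested, DBX1, DBX2 and WNT7B were lower in ventral members. DBX2 stood at 0 to 9.42 CPM in ventral and 18.00 to 46.95 CPM in dorsal members (log2 difference -2.45 ± 0.35, SE).

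Of 8 Hedgehog pathway genes tested, 2 were higher and 3 lower in ventral members, with a median log2 difference of -0.17 against -0.0022 over all genes. PTCH1, the Hedgehog receptor and a target of the pathway, stood at 78.38, 85.59, 131.6, 153.9 and 185.8 CPM in ventral members and at 22.40, 11.45, 46.21, 59.87 and 54.97 CPM in dorsal members of the same libraries. Every ventral value lay above every dorsal value (log2 difference 1.63 ± 0.16, SE, adjusted p = 2.3e-09). GLI1, the transcription factor that the pathway induces, ranged from 30.97 to 69.11 CPM against 4.91 to 21.13 (1.98 ± 0.24, SE). BOC, a co-receptor that the pathway represses, went the other way, from 10.32 to 29.86 CPM in ventral and from 108.0 to 224.2 CPM in dorsal members (-2.63 ± 0.17, SE), as did the co-receptor CDON (-2.13 ± 0.44, SE) and the repressor GLI3 (-0.68 ± 0.12, SE). With DESeq2 the calls of CDON and GLI3 were lost. The pathway target HHIP (-0.30 ± 0.25, SE), GLI2 (-0.04 ± 0.24, SE) and SMO (0.10 ± 0.13, SE) did not pass the test.

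Of 14 WNT genes 5 were higher and 4 lower in ventral members. With each library left out 2 of the 5 and 3 of the 4 kept their call in every fit, and with DESeq2 2 of the 5 and 2 of the 4 did. The secreted antagonists SFRP1 and SFRP2 were higher in ventral members, SFRP2 at 466.5, 318.6, 374.2, 366.5 and 516.2 CPM against 128.8, 147.2, 88.22, 110.3 and 84.95 CPM, without overlap (log2 difference 1.87 ± 0.12, SE, adjusted p = 9.7e-14). SFRP1 differed by 1.5 ± 0.14 (SE). The WNT receptor FZD10 (-2.16 ± 0.31, SE), the WNT effector LEF1 (-1.75 ± 0.29, SE) and the feedback target AXIN2 (-1.24 ± 0.25, SE) were lower in ventral members. Of 7 BMP genes, the 2 called were the BMP targets ID2 and ID3, both lower in ventral members, by -1.0 ± 0.14 and -1.01 ± 0.14 (SE) on the log2 scale, and the call of ID3 was lost with DESeq2. Of 12 Notch genes 3 were higher, among them NOTCH1 (0.90 ± 0.16, SE) and LFNG (0.73 ± 0.12, SE). Of these 3 calls 2 stood in every fit with a library left out, and 2 with DESeq2. Early neuronal tubulin TUBB3 was higher in ventral members of every library, at 18.66, 28.53, 32.66, 72.25 and 603.9 CPM against 0, 8.18, 4.2, 22.30 and 195.9 CPM (1.71 ± 0.17, SE). None of 11 S phase and none of 13 G2M genes was called by edgeR. Epithelial markers were lower in ventral members for 3 of 4, with CLDN6 at 0 to 78.46 CPM against 1.00 to 204.5 CPM, KRT8 by -0.84 ± 0.14 (SE, adjusted p = 5.39e-05) and KRT18 by -0.94 ± 0.23 (SE, adjusted p = 0.0153) on the log2 scale. The call of KRT18 was lost without E16-ZZ, E16-DZ or E18-ZZ, where its smallest difference was -0.34. With DESeq2 the call of CLDN6 was kept and the other two were lost. The muscle marker ACTC1 was higher in ventral members (1.47 ± 0.28, SE, adjusted p = 0.000592), at 218.7 against 26.17 CPM in E16-DZ, but lower in 2 of 5 libraries, and its call was lost without E16-DZ or E18-ZZ, where the smallest difference was 0.86. FOS was 0.39 ± 0.11 (SE) higher, a call that stood in 1 of 5 fits with a library left out. The part of epithelial, muscle and dissociation-response RNA in the differences was not tested.

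**Figure D3:**
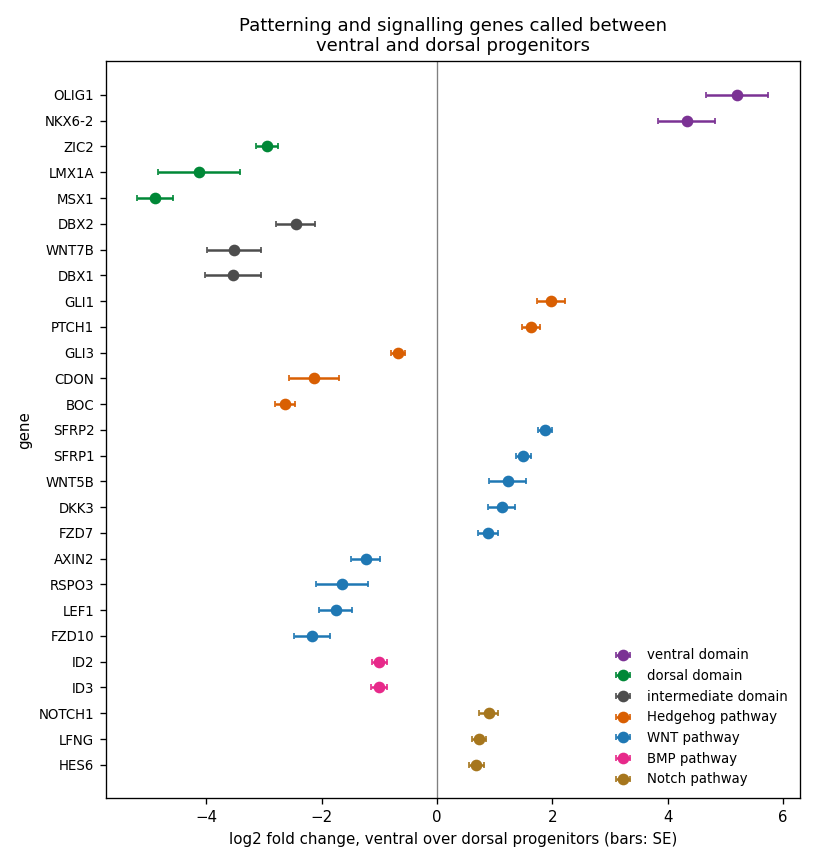
Log2 fold change of ventral over dorsal progenitors (x axis, bars show the SE) for the domain and signalling genes (y axis) that passed an adjusted p of 0.05 in edgeR's quasi-likelihood test over 5 libraries, coloured by list. OLIG1, NKX6-2, GLI1 and PTCH1 lie to the right of 0, with MSX1, ZIC2 and BOC to the left.

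Stages were compared on the members' summed counts of the 6 somite libraries in a single fit, with breed as covariate. Each stage had 2 libraries. The error of a gene is thus the disagreement of the breeds about the stage changes over E16, E18 and E21 together. It has 2 residual degrees of freedom, and the quasi-likelihood test also draws on the spread of the other genes. Both comparisons share this error, so the E21 libraries also enter that of E18 against E16. The comparisons of E18 with E16 and of E21 with E18 share the E18 libraries as well. From E16 to E18, 54 of 10148 genes (0.532%) rose and 147 (1.45%) fell, and from E18 to E21, 742 (7.31%) rose and 595 (5.86%) fell by edgeR's test. The step to E21 was therefore the one with more calls, although the counts of calls moved with the libraries in the fit, from 64 to 774 for the first and from 659 to 1714 for the second when each library was left out in turn. E18-DZ was the library whose absence gave the lowest count in the first comparison (64), and E18-ZZ in the second (659).

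At E16 some members carried forebrain and midbrain genes. SIX3, a homeobox gene of the anterior forebrain, stood at 26.52 CPM in E16-ZZ and 43.56 CPM in E16-DZ and had no UMI in the members of the 4 later libraries, which puts E18 at least 94.0-fold lower (floor of 3 UMIs over the E18 members). OTX2 (14.04 and 20.17 CPM at E16) and OTX1 (8.58 and 9.28 CPM) were likewise at 0 in all later members, at least 45.0-fold and 22.5-fold lower at E18. Together with LHX2 they were the 4 genes called lower of the 6 brain region genes tested. With no UMI in later members, SIX3, OTX1 and OTX2 passed the filter on low counts only through E16 and could not come out higher. The count and the median log2 change of the list, -5.64 against 0.02 over all genes, are therefore given as a description. The call of LHX2 was lost without E16-DZ and without E18-DZ, where the smallest log2 change was -2.96, and the calls of SIX3 and OTX2 were lost with DESeq2, where OTX1 and LHX2 kept theirs. A UMI of SIX3, OTX1 or OTX2 was found in 21 members (12.0%) of E16-ZZ and 41 (13.7%) of E16-DZ, against 2.45% and 4.28% of the other cells there. These members were poor in HOX transcripts, at 164.5 CPM against 719.7 CPM in the remaining E16-ZZ members and 96.98 against 722.9 CPM in those of E16-DZ. A HOX UMI was found in 28.6% and 43.9% of them and in 85.1% and 87.6% of the remaining members, although they were the deeper cells, with medians of 8303 and 9364 UMIs against 5814.5 and 5868. These differences within E16 were not tested.

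Other genes that fell from E16 to E18 included DLK1, a Notch-family surface protein, at 14.82 and 33.07 CPM at E16 and 0.72 and 0.30 CPM at E18 in ZZ and DZ (log2 change -5.42 ± 0.55, SE, adjusted p = 9.46e-05). The growth factor pleiotrophin (PTN) fell from 275.3 and 324.3 CPM to 99.93 and 139.7 CPM (-1.47 ± 0.15, SE), with no overlap between stages. The call of PTN was not kept in dorsal members alone. All 5 epithelial markers fell, KRT8 from 1291 and 862.3 CPM to 315.7 and 126.2 CPM (-2.53 ± 0.19, SE), while the share of endothelial cells with KRT8 went from 74.3% and 81.1% to 57.7% and 34.8%. The apolipoprotein APOE fell from 422.0 and 222.2 to 30.17 and 16.83 CPM (-3.90 ± 0.20, SE), and 2 of 7 endothelial markers, PECAM1 and EGFL7, fell as well, the call of EGFL7 being lost with DESeq2, with a mitochondrial limit of 5% and in dorsal members alone. The immediate early genes FOS (-2.56 ± 0.25, SE) and EGR1 (-1.62 ± 0.19, SE), which respond to tissue dissociation, fell in the same comparison. The part of endothelial, epithelial and dissociation-response RNA in other calls was not tested.

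Fewer genes rose at E18. SAL1 rose from 1.56 and 4.03 CPM at E16 to 17.14 and 33.96 CPM in ZZ and DZ (log2 change 2.90 ± 0.42, SE, adjusted p = 0.00131), and PRDM8 from 15.60 and 5.65 to 51.41 and 41.47 CPM (2.13 ± 0.27, SE). NES rose from 182.5 and 185.1 to 453.6 and 531.6 CPM (1.28 ± 0.19, SE), a call that was lost without E18-DZ, where the change was 1.02. WNT7A, a WNT ligand of the neuroepithelium, was near 0 at E16 (0.78 and 0 CPM) and stood at 8.21 and 7.51 CPM at E18. Of 25 HOX genes 2 rose, HOXC5 (2.03 ± 0.41, SE) and HOXD4 (1.00 ± 0.23, SE). Neither call was kept with DESeq2 or in dorsal members alone. Without E18-DZ both calls were lost, HOXC5 changing by 1.51, and without E16-ZZ HOXD4 was lost as well, with a change of 0.80.

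From E18 to E21, 7 of 12 radial glia genes rose and 4 of 9 early timing genes fell. With DESeq2 5 of the 7 radial glia calls were kept, and not all 7 stood in every fit with a library left out. FABP7, itself a gene of radial glia and of the rule, was found in 15.2% and 16.0% of E18 members and 38.1% and 60.3% of E21 members. The part of this shift in entry in the radial glia calls was not tested. No radial glia gene fell, and the median log2 change of the list was 1.5 against -0.01 over all genes. SOX9, which primes progenitors for glial fate, stood at 17.14 and 27.65 CPM in E18-ZZ and E18-DZ and at 189.6 and 136.9 CPM in E21-ZZ and E21-DZ (log2 change 2.87 ± 0.22, SE, adjusted p = 8.45e-07). NFIA, a nuclear factor of the gliogenic switch, rose from 3.14 and 1.20 to 34.00 and 27.38 CPM (3.71 ± 0.42, SE), and its relative NFIB from 1.21 and 0.60 to 19.56 and 26.24 CPM (4.46 ± 0.55, SE). The stages did not overlap for any of the 3 genes. ZBTB20 (3.03 ± 0.30, SE) and ID4 (2.12 ± 0.21, SE) rose too. SOX9 was found in 8.00% and 6.67% of E16 members, 10.9% and 15.1% of E18 members and 50.2% and 43.6% of E21 members, while the endothelial share stayed between 3.24% and 8.77%. In all other cells the share rose too, from 9.82% and 8.01% at E16 to 14.2% and 15.9% at E18 and 24.9% and 23.9% at E21. NFIB was not particular to members, with a mean of 8.26 CPM in them and 25.03 CPM in the other cells.

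In the early timing list 4 of 9 genes tested fell and none rose. LIN28B, an RNA-binding protein that keeps early developmental timing by blocking let-7 microRNAs, was measured in ZZ and DZ at 154.2 and 183.0 CPM at E18, then 17.23 and 12.55 CPM at E21 (log2 change -3.47 ± 0.22, SE, adjusted p = 1.1e-07). PRTG, an immunoglobulin family receptor of the early neural tube, fell from 317.7 and 521.4 to 36.79 and 44.50 CPM (-3.36 ± 0.19, SE), and the chromatin protein HMGA1 from 1810 and 1757 to 1023 and 868.2 CPM (-0.95 ± 0.15, SE). LIN28A had no UMI at E21, at least 6.34-fold lower than at E18. LIN28A or LIN28B was found in 58.3%, 57.7%, 59.5% and 62.2% of the E16 and E18 members and in 6.15% and 6.41% of those of E21, against 37.9% to 44.0% of the other cells at E16 and E18 and 14.7% and 17.0% at E21.

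Posterior identity genes changed in the same interval. Of 25 HOX genes 15 rose and none fell, with a median log2 change of 1.52, and 11 of the 15 kept their call whichever library was left out. HOXA5 stood at 61.55 and 47.18 CPM in E18-ZZ and E18-DZ and at 463.4 and 340.0 CPM at E21 (log2 change 2.84 ± 0.17, SE, adjusted p = 6.9e-08). HOXC6 rose from 38.62 and 24.04 to 275.3 and 175.7 CPM (2.80 ± 0.20, SE), HOXA9 from 20.03 and 6.01 to 116.0 and 183.7 CPM (3.43 ± 0.37, SE) and HOXB9 from 208.6 and 195.3 to 548.7 and 467.8 CPM (1.29 ± 0.15, SE). Summed by paralogue group, groups 4 and 5 went from 208.1 and 204.3 CPM to 762.4 and 519.1 CPM, groups 6 to 8 from 252.2 and 167.1 to 951.1 and 700.5 CPM, and groups 9 to 13 from 266.2 and 209.7 to 795.5 and 858.0 CPM. Groups 1 to 3 went from 186.1 and 226.6 CPM to 350.3 CPM in ZZ and 182.5 CPM in DZ. The other cells of the libraries moved as well, for groups 6 to 8 from 230.9 and 95.41 to 692.7 and 528.9 CPM, and no test set the members against them. CDX1, CDX2 or CDX4, which act upstream of HOX genes in the tail end of the embryo, were found in 18.3%, 19.7%, 7.41%, 4.89%, 0.198% and 0% of the members from E16-ZZ to E21-DZ (0 of 156, with an exact upper limit of 2.34%), and in 11.5%, 12.6%, 4.42%, 1.95%, 0.279% and 0.219% of the other cells.

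**Figure D4:**
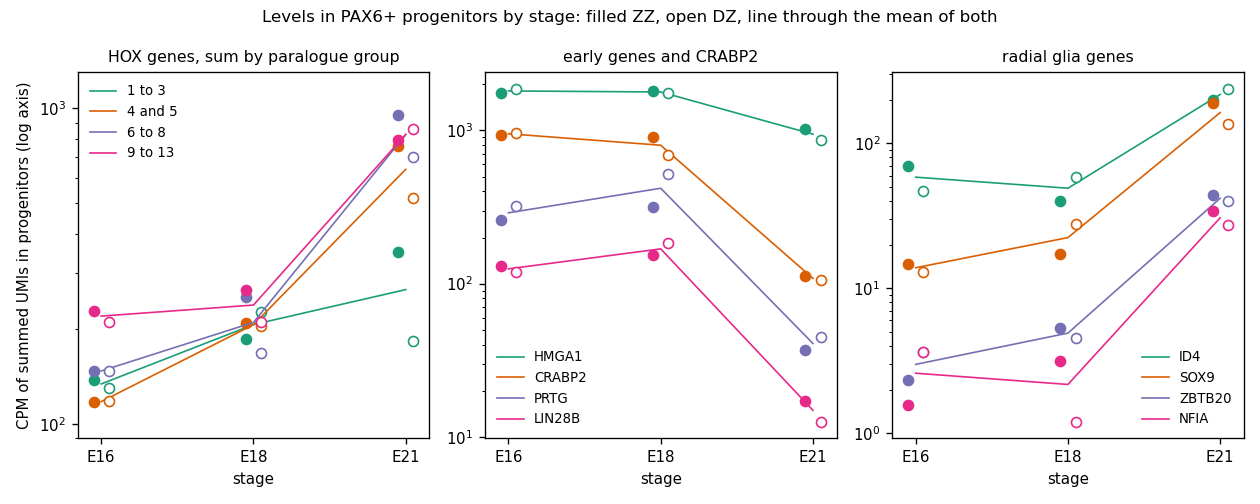
CPM of the summed PAX6+ progenitors (y axis, log scale) at each stage (x axis) in ZZ (filled) and DZ (open), with lines through the mean of the 2 libraries, for HOX genes summed by paralogue group, early genes with CRABP2, and radial glia genes. HOX groups 4 to 13 and the radial glia genes are higher at E21, and LIN28B, PRTG and CRABP2 are lower, than in the 4 earlier libraries.

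Of the progenitor and Notch genes tested, 4 of 7 and 8 of 14 were called higher at E21 and none lower. TTYH1, a membrane protein of neural stem cells that promotes Notch activity, rose from 63.48 and 58.00 to 300.9 and 257.9 CPM (log2 change 2.16 ± 0.17, SE, adjusted p = 9.97e-07). The receptor phosphatase PTPRZ1 rose by 2.54 ± 0.32 (SE) and MSI1 by 1.21 ± 0.17 (SE), and NES was the other progenitor gene called, while N-cadherin (CDH2) did not pass the test (-0.24). NES lost its call without E18-ZZ and without E21-ZZ, where its smallest log2 change was 0.34 against 0.71 in the full fit. The 14 Notch genes had a median log2 change of 0.93, and DESeq2 kept 4 of the 8 calls. The receptor NOTCH1 stood at 40.55 and 67.61 CPM at E18 and at 173.7 and 162.0 CPM at E21 (1.64 ± 0.20, SE). The ligand DLL3 rose from 0.97 and 2.40 to 24.22 and 30.81 CPM (4.04 ± 0.43, SE), and HES6, an inhibitor of HES repressors that favours neurogenesis, from 93.41 and 93.45 to 302.7 and 253.3 CPM (1.54 ± 0.15, SE). These 3 Notch genes were the ones called in every fit with a library left out.

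Neurogenesis genes rose in 7 of 9 cases, and TUBB3 alone among them kept its call with each library left out. TUBB3 stood at 24.14 and 49.88 CPM at E18 and at 303.7 and 174.6 CPM at E21 (log2 change 2.74 ± 0.29, SE). It was detected in 63.7% of E21-ZZ members and 49.4% of E21-DZ members, but also in 26.8% and 5.26% of the endothelial cells there, and young neurons were more numerous in these libraries (1857 and 778 cells) than in either E18 library. The part of neuronal RNA from other cells in this rise was not tested. NEUROG3 was found in 15.5% of E21-ZZ and 5.13% of E21-DZ members and in at most 3.28% of the members of any earlier library, against 2.29% and 0.488% of the other cells at E21.

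Domain genes changed in both directions from E18 to E21. PAX3, PAX7 and NKX6-1 had defined the dorsal and ventral members, so their levels restate the shares given above: PAX7 went from 7.0 and 9.32 to 58.22 and 53.62 CPM, PAX3 from 42.48 and 36.96 to 109.9 and 90.13 CPM and NKX6-1 from 63.24 and 82.64 to 35.86 and 15.97 CPM. Among the dorsal genes outside the split, ZIC1 rose from 2.65 and 2.40 to 11.64 and 17.11 CPM (log2 change 2.38 ± 0.49, SE), MSX1 fell from 40.55 and 40.87 to 16.77 and 21.68 CPM (-1.22 ± 0.30, SE, adjusted p = 0.0142), and ZIC2 did not pass the test (-0.28 ± 0.21, SE). The call of ZIC1 was lost without E18-DZ and without E21-DZ, where the smallest change was 2.0, and that of MSX1 without E18-DZ and without E21-ZZ, where it was -0.69. Of the ventral genes OLIG1 fell from 15.21 and 13.22 to 0.93 and 0 CPM, and NKX6-2 did not pass the test (-0.21 ± 0.27, SE). Of 5 intermediate-domain genes 2 rose and 1 fell. DBX1 rose from 11.34 and 11.12 to 98.28 CPM in ZZ and 29.66 CPM in DZ (2.41 ± 0.31, SE), while DBX2 fell from 41.76 and 41.17 to 24.22 and 6.85 CPM (-1.35 ± 0.30, SE, adjusted p = 0.00711), a call lost without E18-DZ. In both stage comparisons a change within cells and a change in which domains were captured cannot be told apart from the sums over all members. Between E18 and E21, 1337 of 10148 genes tested were called over all members. Dorsal members are part of these, so their calls are not separate support. Within dorsal members, a choice made after the values were seen, 523 of 7692 genes tested were called in this comparison. They included 12 of the 15 HOX genes, all 4 early timing genes, 4 of the 7 radial glia genes and 4 of the 8 Notch genes called over all members. Of the S phase genes 2 of 7 were called there, of the cell cycle control genes 1 of the 4 that fell and 0 of the 3 that rose, and of the FGF genes 0 of 2.

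Signalling genes moved in several directions. In the retinoic acid list 4 genes rose and 2 fell of 10, of which 2 and 1 kept their call in every fit with a library left out. CRABP2, a retinoic acid carrier, fell from 908.3 and 694.1 to 111.3 and 105.0 CPM (log2 change -2.92 ± 0.19, SE, adjusted p = 1.1e-07), while DHRS3, which turns retinal back into retinol, rose from 6.28 and 6.31 to 109.0 and 47.92 CPM (3.59 ± 0.28, SE). Among 14 WNT genes 3 rose and 4 fell, of which 2 and 1 kept their call with each library left out and with DESeq2. WNT7A and SFRP1 were among those that did, WNT7A rising from 8.21 and 7.51 to 91.75 and 47.92 CPM (3.1 ± 0.28, SE) and SFRP1 falling from 542.4 and 790.6 to 299.0 and 278.4 CPM (-1.22 ± 0.18, SE). Of 9 Hedgehog genes 2 rose and 1 fell, none with a call that stood in every fit with a library left out. The dissociation-response list moved in the same comparison, 3 genes rising and 1 falling of 6. FOS went from 59.38 and 63.40 to 161.2 and 174.6 CPM (1.40 ± 0.26, SE), EGR1 and FOSB rose too, and HSPA8 fell from 1660 and 1452 to 1177 and 770.1 CPM (-0.73 ± 0.15, SE). Of these, 1 of the 3 higher calls and not that of HSPA8 stood with each library left out, and the part of this response in other calls was not tested.

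S phase genes fell in 7 of 13 cases and none rose, with a median log2 change of -0.54. Of these 7 calls 3 stood in every fit with a library left out, and 2 in dorsal members alone. MCM2, a subunit of the replicative helicase, went from 163.9 and 172.2 CPM to 87.56 and 96.98 CPM (-0.91 ± 0.17, SE, adjusted p = 0.00218), and MCM4 from 113.9 and 118.1 to 61.48 and 59.33 CPM (-0.99 ± 0.18, SE). The separate list of cell cycle control genes moved both ways, 3 rising and 4 falling of 11, with a median log2 change of 0.11. In that list the G1 kinase CDK6 fell from 81.10 and 70.02 to 33.07 and 33.09 CPM (-1.26 ± 0.20, SE). The G2M list had no call among 13 genes in either direction by edgeR, and a median of -0.08. TOP2A was found in 63.4% to 74.0% of the members of the E16 and E18 libraries, in 36.1% of E21-ZZ and in 55.1% of E21-DZ, where the median depth was 3548.5 and 4922 UMIs.

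The genes with the largest changes from E18 to E21 by the fixed rule included BCL11A, a zinc finger factor of neural development, from 0.72 and 0.30 to 79.18 and 54.76 CPM (log2 change 6.81 ± 0.40, SE, adjusted p = 1.1e-07). PMEPA1, a feedback inhibitor of TGF-beta signalling, rose from 2.41 and 1.20 to 128.5 and 118.7 CPM (5.98 ± 0.34, SE), and the neuronal membrane glycoprotein GPM6A from 3.86 and 5.11 to 116.9 and 86.71 CPM (4.48 ± 0.25, SE). MATN4, an extracellular matrix protein, rose from 0.72 and 0.60 to 26.08 and 30.81 CPM (5.24 ± 0.51, SE), and the ephrin receptor EPHA3 from 0.72 and 0.90 to 19.56 and 23.96 CPM (4.61 ± 0.53, SE). The sugar transporter SLC2A5 fell from 113.9 and 99.76 to 4.19 and 4.56 CPM (-4.70 ± 0.27, SE) and the annexin ANXA1 from 51.17 and 49.28 to 3.73 and 2.28 CPM (-3.99 ± 0.31, SE). Stages did not overlap for any of these genes, and each kept its call with every library left out. The rule picked genes by the size and shared direction of their changes, so the lack of overlap goes with that choice. KRT8, KRT18, CLDN6 and APOE were also among the genes that fell most, and all 4 had been called lower at E18 than at E16 as well.

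The count of genes called between the breeds was small and not stable. With stage as a factor, 1 gene (0.00985%) was higher and 4 (0.0394%) were lower in DZ members by edgeR, with 700 of 10148 at an unadjusted p under 0.05. Leaving out any 1 library gave 16 to 57 calls, the mitochondrial limit of 5% gave 22 and no filter on low counts gave 60. PCBP2, a poly(C)-binding protein, stood at 197.3, 220.4 and 216.6 CPM in ZZ and at 359.7, 403.6 and 365.1 CPM in DZ at E16, E18 and E21 (log2 difference 0.84 ± 0.13, SE, adjusted p = 0.0248). The mitotic kinesin KIF22 stood at 95.94, 101.1 and 97.81 CPM in ZZ and at 53.64, 48.98 and 46.78 CPM in DZ (-0.98 ± 0.14, SE). In both genes the breeds did not overlap, and both calls were lost without E18-DZ, where PCBP2 differed by 0.85 and KIF22 by -0.90. DDIT4, a stress-induced inhibitor of mTOR, stood at 182.5, 122.6 and 103.9 CPM in ZZ and at 92.36, 68.21 and 35.37 CPM in DZ (-1.05 ± 0.15, SE) and was called with every library left out. The other two were the chaperone gene DNAJB1 (-1.12 ± 0.18, SE), lost without E16-DZ at a difference of -0.87, and the keratin gene KRT18 (-1.22 ± 0.19, SE), lost without E18-ZZ and without E18-DZ. DNAJB1 is on the dissociation-response list and KRT18 on the epithelial list, and both calls were lost with DESeq2. The part of such RNA in the breed calls was not tested. Each breed was a pool of the embryos of 1 sow at each stage, so the breed cannot be told apart from these sows.

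Compared with young neurons of the same libraries, the members held more transcripts of the cell cycle and of the Hedgehog and WNT pathways. Young neurons were cells with at least 3 of the neuron genes and no SOX10, with 58 to 1857 cells in the 4 libraries of E18 and E21. Of 11220 genes, 1676 (14.9%) were higher and 1947 (17.4%) lower in members. All 13 G2M genes and 12 of 13 S phase genes were higher in members, with median log2 differences of 1.88 and 1.47 against -0.0015 over all genes. TOP2A stood at 843.4, 833.9, 764.3 and 1007 CPM in members of E18-ZZ, E18-DZ, E21-ZZ and E21-DZ and at 375.6, 501.9, 130.1 and 159.1 CPM in neurons (1.83 ± 0.32, SE, adjusted p = 0.00171), without overlap. Cyclin D1 (CCND1) was 1.66 ± 0.16 (SE) higher on the same scale.

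Of 9 Hedgehog genes 7 were higher in members and none lower, with GLI3 at 108.4 to 127.6 CPM against 17.31 to 53.23 CPM in neurons (log2 difference 2.22 ± 0.26, SE) and the transducer SMO 1.77 ± 0.27 (SE) higher. Of 14 WNT genes 8 were higher and none lower, among them SFRP2, at 168.9 to 323.3 CPM against 25.74 to 61.66 CPM (2.81 ± 0.20, SE). The members also held more of DBX2 (41.76, 41.17, 24.22 and 6.85 CPM against 0, 0, 1.18 and 0 CPM), FGFBP3 (4.40 ± 0.32, SE) and the endocytic receptor LRP2 (4.37 ± 0.30, SE). In neurons 9 of 11 neurogenesis genes and all 5 tested neuron markers were higher: NEUROD1 stood at 69.66 to 94.90 CPM in neurons and 0 to 1.21 CPM in members (-6.66 ± 0.31, SE), and ISL1, a factor of motor and sensory neurons, at 151.3 to 335.5 CPM against 0.60 to 4.10 CPM (-6.30 ± 0.30, SE). The voltage-gated sodium channel gene SCN3A had no UMI in members, at least 162-fold lower than in neurons. Neuron genes chose both classes, so the direction of neuron and neurogenesis genes goes with that choice and is given as a description. Of 25 HOX genes 2 were higher and 4 lower, shares that lie below those over all genes or near them. Markers of other cell types were lower in members as well, for 4 of 7 mesenchyme, 2 of 3 muscle and 2 of 4 epithelial markers, among them COL1A2 (-1.46 ± 0.35, SE), ACTC1 (-2.21 ± 0.18, SE) and KRT8 (-1.60 ± 0.14, SE). Their part in the other differences was not tested.

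SOX10+ cells, the neural crest and glial lineage of the same embryos, served as the other neural comparison, with 129 to 574 cells in the 6 somite libraries. Of 10644 genes, 1509 (14.2%) were higher and 1690 (15.9%) lower in members. All 5 intermediate-domain genes were higher in members, with a median log2 difference of 4.33 against 0.01 over all genes. IRX3 stood at 60.84, 62.51, 73.62, 99.46, 60.55 and 58.19 CPM in members from E16-ZZ to E21-DZ and at 1.05 to 6.39 CPM in SOX10+ cells (3.94 ± 0.18, SE, adjusted p = 3.61e-08). NKX6-1 ranged from 15.97 to 82.64 CPM against 0 to 2.98 CPM (4.52 ± 0.28, SE), and FOXB1 from 38.79 to 79.33 CPM against 0 to 2.56 CPM (5.29 ± 0.22, SE). None of these 3 genes overlapped between the classes. PAX6 and SOX10 chose the classes, so the direction of the domain genes goes with that choice and is given as a description.

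The HOX list was higher in members for 14 of 26 genes and lower for none, with a median log2 difference of 0.68, among them HOXD4 (1.38) and HOXA2 (1.15). Hedgehog genes were higher for 7 of 9, PTCH1 by 1.64 ± 0.16 (SE), and WNT genes for 8 of 14 with 1 lower, SFRP2 standing at 168.9 to 323.3 CPM against 21.80 to 40.01 CPM (3.04 ± 0.12, SE). All 6 crest and glial markers tested were lower in members, among them TFAP2B, a crest transcription factor, at 0.47 to 8.47 CPM against 84.90 to 204.4 CPM (-5.75 ± 0.30, SE). This direction, too, goes with the choice of cells by SOX10. Of the Notch genes 6 of 15 were higher, among them LFNG (2.22 ± 0.13, SE) and HES6 (1.63 ± 0.12, SE), and 2 were lower, among them the Notch target HEYL, at 0 to 9.78 CPM in members and 0.82 to 107.2 CPM in SOX10+ cells (-3.64 ± 0.21, SE). All 7 mesenchyme markers tested were lower in members, among them COL1A2 (-2.43 ± 0.21, SE), and their part in the other differences was not tested.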

How the data were processed

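Single-cell RNA was measured in 8 libraries made with 10x Chromium 3' v3 chemistry. The deposited values are UMI counts: the authors aligned the reads with Cell Ranger (3.1.0 for E16 and 3.0.2 for the other stages, per the file headers) to Sscrofa11.1 with Ensembl annotation and kept barcodes called as cells. The counts are whole numbers for 21301 genes and 90688 barcodes, neither normalized nor corrected, and libraries are kept apart. Rows given only by an Ensembl ID (6455) took a symbol from a gene table where one was free (680 rows).

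Barcodes were kept with at least 200 genes, at most 30000 UMIs and at most 10% of UMIs on 13 mitochondrial genes. This removed 39.2% of E16-ZZ barcodes for mitochondrial share and 1.05% to 9.15% of the others. The kept E16-ZZ cells are thus a selected remainder. NEFM, a neuron gene of the membership rule, has no row, so 4 genes were used. Doublets were not removed, Scrublet (scanpy 1.11.5) being an alternative at 0.8% per 1000 barcodes. Library pairs shared 23 to 49 barcode sequences, none of them in members. The members of the 6 libraries held 14255826 UMIs in all, with medians of 3548.5 to 6625 per cell. Intervals and floors (3 counts) cover counting error only.

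The counts of all members of a library were added up (sums of under 20 cells were left out) and tested with edgeR 4.0.16 (R 4.3.3) by the quasi-likelihood test after TMM scaling and filterByExpr, with Benjamini-Hochberg adjusted p-values over all genes tested and a threshold of 0.05. Levels are CPM of the summed counts without TMM scaling, log2 changes and SE come from the fit. Members and their comparison classes came from the rule's genes, which were not tested. On simulated counts of the E21 against E18 comparison over 9939 genes, the test called 83 of 97 genes changed by a log2 fold of 2 and 12 of 95 changed by 1. The simulation used a fixed dispersion (squared relative spread between libraries) of 0.05. In the data the square root of the common dispersion was 0.13, so this recovery is for noisier counts than those tested. The 28 gene lists hold 354 genes, of which 324 matched a row. Genes outside the lists were named if they were among the 8 largest changes per direction with at least 20 CPM in the higher group and the same direction in every pair of libraries. Members and lists were chosen with earlier results of these data known. Alternatives were DESeq2 1.42.0, no filter on low counts, each library left out, a mitochondrial limit of 5%, removal of high Scrublet scores or of members with mesenchyme markers, no breed or stage term, and, chosen after seeing the data, dorsal members only and the ratios of members over other cells with each library left out. Some genes are not reported here.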

Additional observations from a re-analysis of the deposited data

Results flagged for a closer look

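In 3 measures the breeds moved in opposite directions between stages, with 1 library for each breed and stage, and the difference between the breeds was not tested. The share of members with dorsal genes changed from E16 to E18 by 7.70 percentage points in ZZ and by -0.20 in DZ. The PAX6 level in members changed from E18 to E21 by 73.9 CPM in ZZ and by -60.9 CPM in DZ. The HES5 level changed over the same interval by 668.0 CPM in ZZ and by -126.0 CPM in DZ, beside a fall in the share of members with HES5 from 93.1% to 55.8% in DZ and from 93.3% to 91.1% in ZZ. PAX6 and HES5 were genes of the membership rule, so their levels in members are bounded by it.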

How the results depend on the processing

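The difference in the share of members between early and late libraries kept its sign under every alternative run, and ranged from -3.39 to -1.85 percentage points with each library left out. Tests of 4 against 3 or 4 against 2 libraries cannot go below an exact p of 0.0571 or 0.133, and the alternatives with 8 libraries did not pass. Counts of called genes moved more. With DESeq2 they were 63 for E18 against E16 (201 in the reported fit), 453 for E21 against E18 (1337), 3 for DZ against ZZ (5), 2106 for members against SOX10+ cells (3199) and 95 for ventral against dorsal members (243). Without the filter on low counts they were 522 for E18 against E16 and 60 for DZ against ZZ. With a mitochondrial limit of 5% they were 22 for DZ against ZZ, 1912 for SOX10+ cells and 114 for ventral against dorsal members. Dorsal members alone gave 46 for E18 against E16 and 523 for E21 against E18, removal of high Scrublet scores gave 8 for DZ against ZZ, no stage term gave 0 there, and removal of members with mesenchyme markers gave 136 for ventral against dorsal members. With each library left out the counts ranged from 64 to 774 for E18 against E16 (317 without E18-ZZ, 64 without E18-DZ, 774 without E21-ZZ and 657 without E21-DZ), from 659 to 1714 for E21 against E18 (659 without E18-ZZ and 693 without E18-DZ), from 16 to 57 for DZ against ZZ, from 1690 to 3714 for young neurons (1690 without E21-ZZ and 1887 without E21-DZ), from 2258 to 2888 for SOX10+ cells and from 139 to 251 for ventral against dorsal members (141 without E18-ZZ and 139 without E18-DZ). Fits with fewer libraries or cells have fewer sums to test, and otherwise the cause was not tested. Of 5349 single-gene results, 4711 kept direction and call, 637 kept direction only, and 1 turned. They belong to 499 pairs of a gene and a comparison, so a gene called in several comparisons counts more than once. The turned result was the co-receptor BOC between E18 and E21, at -0.04 (edgeR adjusted p = 0.958) in dorsal members alone. The stage fits held breed as a covariate and the fits between classes of cells held the library as a block. By replicate number, no paired analysis was possible because each stage and breed has 1 library and the labels give no such number.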
